A study of Mus musculus with 9 samples.

Results

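The hypoxia-inducible factor (HIF) pathway and a set of its targets were followed in sorted SIX2 nephron progenitors with and without the complex III subunit QPC. The 10 genes, taken by their symbols from the deposited table of 26858 genes, were the HIF α subunits *Hif1a* and *Epas1*, the prolyl hydroxylases *Egln1* and *Egln3*, the secreted factors *Vegfa* and *Adm*, and the targets *Bnip3*, *Ankrd37*, *Ndrg1* and *Higd1a*. All 10 passed the filter on low counts, as did 14990 genes of the table. In cells with enough oxygen, prolyl hydroxylases modify the HIF α subunits, the von Hippel-Lindau protein then binds them, and they are degraded. When oxygen is short the hydroxylases slow down, the α subunits accumulate, pair with the β subunit ARNT and switch on genes for glycolysis, blood vessel growth, mitophagy and pH control. *Egln3*, *Egln1* and *Vegfa* are themselves HIF targets in many cells, and the developing kidney is vascularized while its nephrons form.

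RNA-seq measured the transcripts of eGFP+ cells sorted from kidneys at embryonic age E18.5. The control cells came from *Six2-Qpc* heterozygous embryos (*Six2-Qpc*+/-, n = 4, replicates 71, 72, 73 and 76). The mutant cells came from *Six2-Qpc* knockout embryos (*Six2-Qpc*-/-, n = 5, replicates 74, 75, 77, 78 and 79), in which both floxed alleles of *Uqcrq*, the gene for QPC, are targeted. Both groups carry the transgene, a bacterial artificial chromosome in which the *Six2* promoter drives Cre fused to eGFP. The comparison therefore holds no group of embryos without Cre and none in which both *Uqcrq* alleles are left untargeted. The sort keeps whatever cells carry enough eGFP. The paper reports a smaller share of eGFP+ cells in mutant than in control kidneys. It does not fully exclude that differentiating control cells with weak GFP were sorted too. The labels do not say whether a replicate is 1 embryo or a pool, and p-values here measure only the spread between these samples, which may be technical. Each replicate gave 1 library, with 22571729 to 23691130 counted reads in controls (median 23450313) and 21040536 to 23986458 in mutants (median 21774766; 2-sided exact permutation test, p = 0.135).

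Values are counts scaled to a normalized library of 1000000 reads (CPM). They are listed for controls 71, 72, 73 and 76 and then for mutants 74, 75, 77, 78 and 79, always in that order, and means are given ± SD over libraries. A log2 fold change compares mutant with control cells in the quasi-likelihood test of edgeR, fitted to all tested genes with Benjamini-Hochberg adjustment, and an adjusted p under 0.05 was the threshold. Its standard error is given as SE. The targeted gene came first as a check of the labels. *Uqcrq* measured 107, 76.8, 91.1 and 101 CPM in controls and 16.5, 28.2, 22.6, 20.3 and 19.0 CPM in mutants. Every mutant library lay below every control library, with a log2 fold change of −2.14 (SE 0.16, edgeR adjusted p = 2.09e-05).

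The sorted cells carried the markers of nephron progenitors at high levels in both groups. The 8 progenitor markers (*Six2*, *Cited1*, *Eya1*, *Osr1*, *Meox1*, *Crym*, *Itga8* and *Sall1*) summed to 2272 ± 227 CPM in control cells (SD, n = 4) and 2367 ± 204 CPM in mutant cells (SD, n = 5; 2-sided exact permutation test, p = 0.508), with *Six2* at 571 and 704 CPM. With edgeR 0 of the 8 passed the threshold, 2 had an unadjusted p under 0.05, and DESeq2 called 0 and limma-voom 1 (*Six2*). *Six2* was also called higher without mutant 75, and with 1 surrogate variable *Six2* was called higher and *Crym* lower. Markers of other cells were present at lower levels, and 5 of these 8 lists differed between the groups at an unadjusted p under 0.05. The counts of called markers below stand beside 7.82% of all tested genes higher and 7.02% lower with edgeR. An unadjusted p under 0.05 was found for 31.4%. DESeq2 called 1746 of the 14990 tested genes higher and 1438 lower, and limma-voom 2403 and 2455. The 8 markers of committed cells and the renal vesicle, *Pax8* the most abundant per kilobase over all 9 libraries (*Wnt4* in controls), summed to 514, 540.0, 662 and 332 CPM in controls and 299, 247, 363, 293 and 275 CPM in mutants (2-sided exact permutation test, p = 0.0159), and 3 of 8 fell with edgeR (*Wnt4*, *Lhx1* and *Ccnd1*), 4 with DESeq2 and 5 with limma-voom. *Ccnd1* was not called without control 71, 72 or 73 or mutant 75, 77, 78 or 79, nor without the filter, with 1 surrogate variable or with the Y-linked covariate, and the list had 5 calls without control 76 and 2 without control 71, 72 or 73 or mutant 75, 78 or 79. The 10 stromal markers summed to 243, 224, 209 and 340.4 CPM in controls and 608, 919, 421, 452 and 532 CPM in mutants (p = 0.00794 in the exact permutation test, the smallest that its 126 splits allow), with *Tcf21* the most abundant per kilobase in both groups and 6 of 10 higher with edgeR (8 with DESeq2 or limma-voom), against 2 without control 73 and 8 without control 76. Limma-voom also called 1 stromal marker lower. *Pdgfrb*, at 10.7 and 7.5 CPM, had a fitted log2 fold change of −0.51 with edgeR and did not pass there. The 8 myeloid markers summed to 2.43, 10.6, 2.57 and 13.3 CPM in controls and 12.1, 48.3, 153, 72.2 and 48.3 CPM in mutants (exact permutation test, p = 0.0238). Of these 8, 3 rose with edgeR, 5 with DESeq2 and 8 with limma-voom, and 8 were higher at an unadjusted p under 0.05. With edgeR the count was 6 without mutant 74, 2 without mutant 75, 77 or 79 and 1 without mutant 78. *Tyrobp*, the most abundant per kilobase over all 9 libraries (*Cd68* in controls), averaged 0.782 CPM in control and 10.2 CPM in mutant cells. The 10 endothelial markers summed to 48.9, 35.7, 49.0 and 41.6 CPM in controls and 27.4, 19.6, 23.9, 19.0 and 17.0 CPM in mutants (exact permutation test, p = 0.00794). Per kilobase *Plvap* led this list over all 9 libraries and in controls, and *Egfl7* in mutants. Of the list, *Plvap*, *Cldn5* and *Egfl7* fell, or 2 of these without control 73, where *Egfl7* was not called. *Pecam1*, at 0.248 and 1.36 CPM, passed as higher with all 9 libraries and without mutant 75, and was not called without control 71, 72, 73 or 76 or mutant 74, 77, 78 or 79, with 1 surrogate variable or with the Y-linked covariate. The lower sum thus came mostly from *Plvap*, *Cldn5* and *Egfl7*, and the median log2 fold change of the 8 tested genes was 0.01. *Cdh5*, at 0 to 1 reads in controls and 2 to 17 in mutants, and *Tek*, at 0 to 8 and 2 to 24 reads, lay below the filter. The 7 ureteric bud markers summed to 54.5 ± 7.85 and 39.9 ± 8.10 CPM (SD, n = 4 and 5; exact permutation test, p = 0.0397), mostly *Hoxb7* (40.5 and 29.3 CPM) and *Wnt11* (12.9 and 7.17 CPM), with *Ret* at 0.113 and 0.282 CPM and *Wnt9b* at 0.132 and 0.0256 CPM. *Calb1* went the other way, at 0.356 and 2.69 CPM (log2 fold change 2.88), with 0 to 216 reads in mutants. Of the 3 tested ureteric bud markers, edgeR called 0, while DESeq2 and limma-voom each called *Wnt11* and *Hoxb7* lower. The 6 podocyte markers summed to 35.6 and 38.6 CPM, the 6 proximal tubule markers to 4.13 and 5.96 CPM and the 7 erythroid markers to 1.87 and 2.03 CPM (exact permutation tests, p = 0.706, 0.619 and 0.468). In such bulk libraries, fewer cells of a type and less RNA per cell cannot be told apart. The part of these cell type differences in the values of the HIF pathway was not tested.

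Of the 10 HIF pathway members, 2 passed the threshold, *Bnip3* and *Ankrd37*, and both fell in mutant cells. Among all tested genes, 14.8% were called, 7.82% higher and 7.02% lower in mutant cells. With edgeR 0 of the 10 members were called higher. In that direction 1 member, *Hif1a*, had an unadjusted p under 0.05. DESeq2 and limma-voom each called 1 higher, beside 1746 and 2403 of the 14990 tested genes, more than with edgeR. In either direction, 3 of the 10 members had an unadjusted p under 0.05, against 31.4% of all tested genes, and 1 member had groups that did not overlap, against 15.2%. The fitted log2 fold changes split evenly, 5 above 0 and 5 below, with a median of −0.01 beside −0.01 for all tested genes, and with upper-quartile factors both medians were −0.04. Without mutant 74 the members' median was −0.12 beside −0.02 for all tested genes. Leaving out 1 library gave 0 members (without control 71) to 3 members (without mutant 74) past the threshold, and 1 member without control 76, mutant 77, mutant 78 or mutant 79.

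The α subunit of HIF-1, *Hif1a* (ENSMUSG00000021109, chromosome 12, 73901375 to 73947530, plus strand, GRCm38), measured 87.9, 117, 116 and 123 CPM in controls and 121, 147, 133, 149.9 and 148 CPM in mutants. Control 71 was the lowest of the 9 libraries and mutants 78, 79 and 75 the highest, while mutant 74 lay just under control 76, so the groups overlapped. Means of 111 ± 15.6 CPM (n = 4) and 139.7 ± 12.7 CPM (n = 5) gave a log2 fold change of 0.33 (SE 0.12, 95% interval 0.07 to 0.60), with an adjusted p of 0.0838 in edgeR that missed the threshold. The adjusted p was 0.0471 with DESeq2, 0.0275 with limma-voom and 0.0425 in edgeR without mutant 74 (log2 fold change 0.38), and it ran from 0.0275 to 0.195 over the alternatives. On the opposite strand the antisense gene *Gm15283* shares 330 exonic bases with *Hif1a*, and reads of the pair cannot be told apart there in these unstranded libraries. *Gm15283* was counted at 2.52 and 1.68 CPM. On the same strand *Gm49321*, not analysed here, shares 148 exonic bases with *Hif1a*. The part of shared reads in the *Hif1a* values was not tested.

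The α subunit of HIF-2, *Epas1* (ENSMUSG00000024140, chromosome 17, 86753907 to 86833410, plus strand), was barely detected. Its counts were 18, 14, 21 and 2 reads in controls and 29, 6, 13, 4 and 14 reads in mutants. The lowest library was a control and the highest a mutant, with full overlap between them. The 95% interval of its log2 fold change reached from −1.32 to 1.47, so no difference was detectable at this depth. The sign of the fitted value, 0.08, turned to −0.27 without control 76 and to −0.37 without mutant 74.

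Of the prolyl hydroxylases, *Egln1* (PHD2; ENSMUSG00000031987, chromosome 8, 124908596 to 124949254, minus strand), the main oxygen sensor of most cells, measured 51.3, 38.7, 38.1 and 64.1 CPM in controls and 43.0, 36.0, 46.1, 42.3 and 42.8 CPM in mutants. Controls 76 and 71 were the highest libraries, and the other 2 controls lay among the mutants. Mutant and control cells differed by −0.19 on the log2 scale (SE 0.16, 95% interval −0.54 to 0.15, edgeR adjusted p = 0.444). *Egln3* (PHD3; ENSMUSG00000035105, chromosome 12, 54178981 to 54203860, minus strand), whose transcript rises in hypoxia in many cell types, measured 3.92, 4.28, 3.498 and 4.01 CPM in controls and 10.3, 4.47, 3.16, 5.61 and 3.13 CPM in mutants. Mutant 74 stood above the rest, and mutants 77 and 79 were the lowest of all libraries. The log2 fold change of 0.44 (95% interval −0.28 to 1.17, edgeR adjusted p = 0.399) was 0.06 without mutant 74.

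Of the secreted factors, *Vegfa* (ENSMUSG00000023951, chromosome 17, 46016993 to 46032377, minus strand), which guides endothelial cells into the growing kidney, measured 132, 131, 125 and 146 CPM in controls and 129.9, 130.1, 138, 126 and 152 CPM in mutants. The groups overlapped, with a control the lowest and a mutant the highest. Control cells averaged 133 ± 8.91 CPM (SD, n = 4) and mutant cells 135 ± 10.5 CPM (SD, n = 5). The log2 fold change of 0.02, or −0.01 with upper-quartile factors, had a 95% interval from −0.20 to 0.24 (edgeR adjusted p = 0.919), the narrowest interval of the 10 members.

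*Adm* (ENSMUSG00000030790, chromosome 7, 110627661 to 110629820, plus strand) encodes adrenomedullin, a vasodilator peptide. It measured 2.05, 3.43, 2.19 and 4.01 CPM in controls and 4.05, 6.33, 4.54, 13.97 and 1.36 CPM in mutants, from 48 to 95 reads and from 30 to 284 reads. Of the mutants, 4 lay above all controls and mutant 79 below all of them. On the log2 scale the difference was 1.05 (SE 0.50, 95% interval −0.03 to 2.13, edgeR adjusted p = 0.17), and it was 0.48 without mutant 78.

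**Figure D1:**
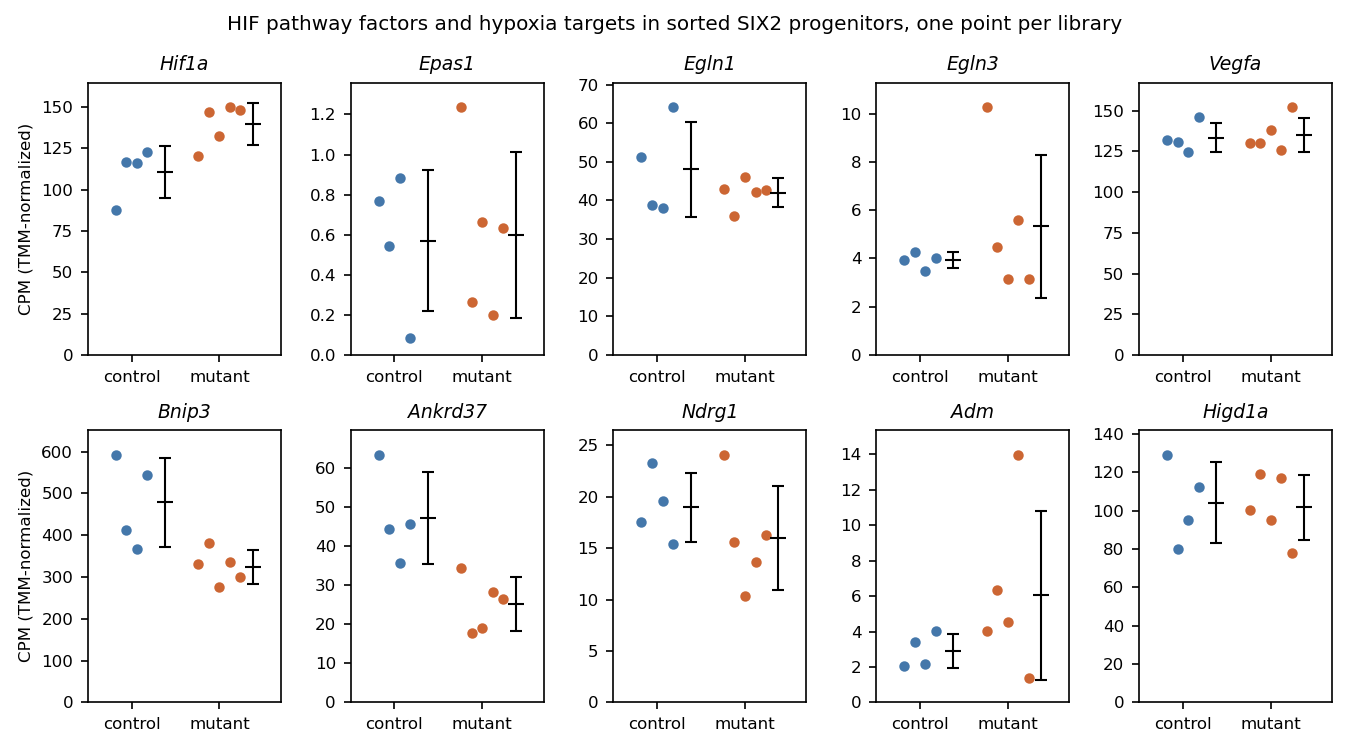
Normalized counts (CPM, vertical axes, each from 0) of the 10 HIF pathway genes in control and mutant libraries. Each point is 1 library, and the bar beside each group gives the mean and SD (n = 4 and 5). The mutant points of *Ankrd37* all lie below the control points, from 17.7 to 34.4 against 35.6 to 63.4 CPM, whereas those of *Vegfa* overlap the control points, from 126 to 152 against 125 to 146 CPM.

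*Bnip3* encodes a mitophagy receptor of the outer mitochondrial membrane. The gene lies on chromosome 7, 138890836 to 138909519, minus strand; its identifier in the table is ENSMUSG00000066394, and the GENCODE annotation has ENSMUSG00000078566 at this position. It measured 592, 411, 367 and 545 CPM in controls and 329.9, 381, 275, 335 and 299 CPM in mutants. Controls 71 and 76 were the highest by a wide margin, and the groups overlapped only in that mutant 75 lay above control 73. Control cells averaged 479 ± 107 CPM (SD, n = 4) and mutant cells 324 ± 40.0 CPM (SD, n = 5). *Bnip3* thus had a log2 fold change of −0.56 (SE 0.15, 95% interval −0.89 to −0.24, edgeR adjusted p = 0.0257), a change of −32.3%. The call was lost without control 71 (log2 fold change −0.45, adjusted p = 0.0829), control 76 (−0.49, 0.0667), mutant 77 (−0.51, 0.0624), mutant 78 (−0.58, 0.0501) or mutant 79 (−0.54, 0.0556), and adjusted p ran from 0.00708 to 0.0829 over all alternatives. Several processed copies of *Bnip3* exist; the one in the table, *Gm16439*, matches it over 564 bases at 98.9% identity and had 4.02 and 4.16 CPM, and an antisense gene, *Gm45507*, not analysed here, shares 504 exonic bases.

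*Ankrd37* (ENSMUSG00000050914, chromosome 8, 45996902 to 45999867, minus strand), which codes for a small ankyrin repeat protein and is a direct HIF-1 target, measured 63.4, 44.3, 35.6 and 45.6 CPM in controls and 34.4, 17.7, 19.1, 28.4 and 26.4 CPM in mutants. Every mutant library lay below every control library, with mutant 74 just under control 73 and control 71 far above the others. Averages were 47.2 ± 11.7 CPM for control (SD, n = 4) and 25.2 ± 6.91 CPM for mutant cells (SD, n = 5). For *Ankrd37* the log2 fold change was −0.91 (SE 0.21, 95% interval −1.36 to −0.45, edgeR adjusted p = 0.014), or −46.6%. Without control 71 it was −0.73 with an adjusted p of 0.0528, the highest of a range that began at 0.000873. Of the neighbours on the opposite strand, *Lrp2bp*, which shares 349 exonic bases, had 1 to 3 reads in controls and 2 to 13 in mutants. *Ufsp2*, which shares 57, had 94.2 and 82.5 CPM (log2 fold change −0.19, edgeR adjusted p = 0.385). The part of reads over these shared bases in the *Ankrd37* values was not tested.

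*Ndrg1* (ENSMUSG00000005125, chromosome 15, 66929321 to 66969640, minus strand), a stress-responsive gene induced by hypoxia, measured 17.6, 23.3, 19.6 and 15.4 CPM in controls and 24.1, 15.6, 10.3, 13.7 and 16.2 CPM in mutants. Mutant 74 was the highest library and mutants 77 and 78 the lowest, with the others mixed. Its fitted log2 fold change was −0.25 (SE 0.22, 95% interval −0.72 to 0.23, edgeR adjusted p = 0.484). On the opposite strand *Gm17035*, not analysed here, and *Gm2895*, with 0 to 10 reads in controls and 0 to 4 in mutants, share 419 and 137 exonic bases with *Ndrg1*. *Higd1a* (ENSMUSG00000038412, chromosome 9, 121848560 to 121858000, minus strand) encodes a mitochondrial inner membrane protein that associates with the respiratory chain. It measured 129, 80.1, 95.04 and 112 CPM in controls and 100.4, 119, 94.97, 117 and 77.7 CPM in mutants. Control 71 was the highest and mutant 79 the lowest, and the remaining libraries of both groups were interleaved. Its fitted log2 fold change was −0.03 (SE 0.16, 95% interval −0.37 to 0.31, edgeR adjusted p = 0.909), and its sign turned without control 71 (0.09), control 76 (0.01) or mutant 79 (0.05). The antisense gene *Gm47112*, not analysed here, shares 683 exonic bases with *Higd1a*. A similar gene elsewhere, *Gm9790*, matches *Higd1a* over 288 bases at 99.31% identity and had 0.698 and 0.731 CPM. The part of shared reads in the *Ndrg1* and *Higd1a* values was not tested.

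Control 71 was the highest of the 9 libraries for *Bnip3*, *Ankrd37* and *Higd1a* and the lowest for *Hif1a*. Mutant 74 was the highest for *Epas1*, *Egln3* and *Ndrg1*, and the highest of the mutants for *Ankrd37*. Among genes, levels were compared as CPM per kilobase of the gene length in the table. On this scale *Bnip3* was the most abundant member in controls, at 273 CPM per kilobase, followed by *Higd1a* at 55.6, *Ankrd37* at 50.9 and *Vegfa* at 38.7 CPM per kilobase. *Hif1a* stood at 23.5, *Egln1* at 13.7 and *Ndrg1* at 4.68 CPM per kilobase, and *Adm*, *Egln3* and *Epas1* at 2.10, 1.48 and 0.107 CPM per kilobase. The libraries of *Ankrd37* overlapped those of *Higd1a* and *Vegfa*, and those of *Adm* overlapped those of *Egln3*; the other neighbours in this order did not overlap. In mutants *Ankrd37* moved from place 3 to place 5, at 27.2 CPM per kilobase, behind *Vegfa* at 39.2 and *Hif1a* at 29.6 CPM per kilobase, although its libraries overlapped those of both. *Adm* and *Ndrg1* changed places, at 4.35 and 3.95 CPM per kilobase, with overlap. *Hif1a* transcripts were far more abundant per kilobase than those of *Epas1* in both groups.

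The genes most like the called members were found among 9348 tested genes that averaged 10 CPM or more, by the root mean square difference of log2 CPM, each gene centred on its mean over the 9 libraries. Since they were picked for a profile close to that of a member that fell, their own fall and order of libraries come with the choice. *Fam162a*, itself a hypoxia target, lay closest to *Bnip3* with a difference of 0.13 (log2), followed by *Agpat2*, an acyltransferase of phospholipid synthesis, with 0.14, beside a median of 0.44 for all of these genes. *Fam162a* measured 369, 228, 216 and 278 CPM in controls and 202, 177, 150.1, 197 and 165 CPM in mutants. Here the groups did not overlap. *Agpat2* fell from 42.8 ± 4.08 CPM (SD, n = 4) to 30.5 ± 4.43 CPM (SD, n = 5), with a log2 fold change of −0.49 (edgeR adjusted p = 0.0317). Its call was lost without any 1 of controls 71, 72, 73 and 76 and mutants 77, 78 and 79, with adjusted p between 0.0545 and 0.086, and it shares 64 exonic bases with *Egfl7* on the opposite strand, which also fell. The genes closest to *Ankrd37* were *Pgm2*, the table's name for a phosphoglucomutase on chromosome 4, with a difference of 0.15, and *Srd5a1*, a steroid 5α-reductase, with 0.17, beside a median of 0.61. *Pgm2* measured 96.0, 83.3, 68.4 and 70.7 CPM in controls and 58.3, 32.0, 28.9, 39.9 and 48.8 CPM in mutants. *Srd5a1* went from 23.5 ± 3.11 CPM to 13.1 ± 2.63 CPM (SD, n = 4 and 5; log2 fold change −0.84, edgeR adjusted p = 0.009). It shares 476 exonic bases with *Gm17108* on the same strand (0.860 and 0.360 CPM).

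Promoter sequences from RefSeq were searched because *Bnip3* and *Ankrd37* both fell. Windows of 250 bases upstream of the transcription start (GRCm38.p6) were at hand for 8 of the 10 members, in 9 windows, and *Epas1* and *Ndrg1* were not among them. The letters ACGTG and GCGTG, the core of the HIF response element, were sought on both strands. Of all 32851 promoter windows, 16.6% held ACGTG, 28.2% held GCGTG and 38.6% held either. All 8 of the members with a window held at least 1 of these motifs in a window, and 6 held ACGTG, called and uncalled members alike, although 1 of the 2 *Vegfa* windows held neither. The members were chosen as HIF pathway genes and targets. All windows together were not matched to theirs in GC content, which ran from 50.8% (*Egln3*) to 86.0% (*Egln1*) in the members. The *Vegfa* window with matches (46025164 to 46025413) lies inside the span given above for this gene, and the one without lies just upstream of it. The *Hif1a* window (73907617 to 73907866) also lies inside the span of its gene. The windows of the 2 members that fell are shown, with each match on either strand in capitals. The *Bnip3* window, chr7:138909507-138909756 on the minus strand, has 2 matches of ACGTG, which share the palindrome CACGTG, and 3 of GCGTG. The *Ankrd37* window, chr8:45999851-46000100 on the minus strand, has 2 matches of each. A match is a string of letters and does not show that HIF binds there.
Bnip3: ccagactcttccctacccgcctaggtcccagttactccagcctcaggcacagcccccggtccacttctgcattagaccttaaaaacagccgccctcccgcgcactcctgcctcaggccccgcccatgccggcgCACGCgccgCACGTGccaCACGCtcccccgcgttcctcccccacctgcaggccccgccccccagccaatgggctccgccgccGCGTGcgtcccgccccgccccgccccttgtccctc
Ankrd37: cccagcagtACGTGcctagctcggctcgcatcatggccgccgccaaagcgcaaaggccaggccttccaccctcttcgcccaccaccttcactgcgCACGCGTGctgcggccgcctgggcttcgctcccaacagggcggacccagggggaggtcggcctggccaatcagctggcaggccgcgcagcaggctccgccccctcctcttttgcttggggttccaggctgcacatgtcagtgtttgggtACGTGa

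The rest of the HIF machinery, 15 genes for the β subunits, the α subunit *Hif3a*, the other hydroxylases, the ubiquitin ligase parts, the coactivators and *Cited2*, which competes with HIF for them, had a median log2 fold change of 0.14 beside −0.01 for all tested genes. Of these, 2 of 15 rose, *Siah2* and *Hif1an*, against 7.82% of all tested genes called higher and 7.02% lower. With edgeR 0 fell, with 1 lower at an unadjusted p under 0.05. DESeq2 called 0 lower and limma-voom 1, against 1438 and 2455 of the 14990 tested genes. *Siah2*, a ubiquitin ligase that targets prolyl hydroxylases such as PHD3, measured 11.1, 10.4, 10.1 and 12.8 CPM in controls and 18.6, 25.3, 26.4, 25.6 and 26.9 CPM in mutants. All mutants lay above all controls, and mutant 74 was set apart from the other mutants on the side of the controls. Its log2 fold change was 1.15 (SE 0.16, edgeR adjusted p = 0.00114). *Hif1an*, the asparaginyl hydroxylase FIH that blocks coactivator binding to HIF α, measured 18.1, 26.8, 21.3 and 24.6 CPM in controls and 30.9, 30.7, 33.1, 29.3 and 34.3 CPM in mutants. The groups did not overlap, and control 71 was the lowest library. Its log2 fold change of 0.48 (SE 0.14, edgeR adjusted p = 0.0401) missed the threshold without control 71 (0.38, adjusted p = 0.0973), control 73 (0.45, 0.119), mutant 75 (0.49, 0.0607), mutant 77 (0.46, 0.0779), mutant 78 (0.51, 0.0634) or mutant 79 (0.45, 0.0756), over a range from 0.0078 to 0.119.

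Other parts of the machinery did not pass. The β subunit *Arnt* measured 38.6, 57.0, 49.5 and 56.5 CPM in controls and 58.5, 62.2, 64.1, 58.5 and 69.3 CPM in mutants. The mutants all lay above the controls by a narrow margin, with a log2 fold change of 0.31 (95% interval 0.02 to 0.60, edgeR adjusted p = 0.129). *Vhl*, the substrate receptor of the ubiquitin ligase that recognizes hydroxylated HIF α, measured 56.7, 60.7, 55.1 and 59.9 CPM in controls and 51.8, 51.0, 48.5, 46.9 and 50.5 CPM in mutants. Here the mutants all lay below the controls, with a log2 fold change of −0.22 (SE 0.10, edgeR adjusted p = 0.154). *Egln2* (PHD1), the remaining prolyl hydroxylase, ranged from 43.7 to 86.5 CPM in controls and from 32.2 to 69.0 CPM in mutants, with overlap. Its log2 fold change was −0.40 (95% interval −0.91 to 0.11, edgeR adjusted p = 0.27), and limma-voom called it (−0.56, adjusted p = 0.0382, within a range up to 0.668). The most abundant parts per kilobase, *Tceb2* (elongin B) and *Rbx1*, had log2 fold changes of 0.08 (95% interval −0.24 to 0.40) and 0.14 (−0.16 to 0.44), and that of *Tceb2* turned to −0.02 without control 72 or without mutant 78.

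Of 28 other hypoxia targets outside glycolysis, 27 were tested and *Epo*, the gene for erythropoietin, lay below the filter. Their log2 fold changes had a median of −0.11 beside −0.01 for all tested genes, with 8 above 0 and 19 below. Of the 27, 4 rose (*Cxcr4*, *Hmox1*, *Stc2* and *Nfil3*) and 2 fell (*Car12* and *Fam162a*), beside 7.82% of all tested genes higher and 7.02% lower. The list had 3 calls without control 73 and 10 without mutant 74, 6 of these lower. The chemokine receptor *Cxcr4* measured 6.35, 4.24, 8.13 and 13.8 CPM in controls and 8.14, 23.2, 40.5, 27.8 and 21.6 CPM in mutants. Mutant 74 lay within the controls, and mutant 77, the library with the highest myeloid sum, was the highest. For *Cxcr4* the log2 fold change was 1.58 (SE 0.41, edgeR adjusted p = 0.0243). *Hmox1*, the heme oxygenase that macrophages also express, measured 9.33, 5.65, 5.52 and 6.37 CPM in controls and 11.1, 14.2, 18.0, 36.8 and 18.6 CPM in mutants. The mutants all lay above the controls, and mutant 78 stood well above the others (log2 fold change 1.55, SE 0.32, edgeR adjusted p = 0.00767). Of the 8 myeloid markers, all had a fitted value above 0, and their summed level, from 2.43 to 13.3 CPM in controls and 12.1 to 153 CPM in mutants, was also higher on average in mutants. The part of the myeloid level in the *Cxcr4* and *Hmox1* results was not tested.

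The secreted glycoprotein *Stc2* measured 6.05, 8.92, 7.84 and 4.599 CPM in controls and 16.7, 8.50, 15.0, 13.9 and 20.2 CPM in mutants. Mutant 75 lay just under control 72 and the other mutants above all controls (log2 fold change 1.12, SE 0.26, edgeR adjusted p = 0.0149). *Nfil3*, a bZIP transcription factor, went from 59.2 ± 5.96 to 82.8 ± 9.32 CPM (SD, n = 4 and 5) without overlap (log2 fold change 0.48, edgeR adjusted p = 0.019). The carbonic anhydrase gene *Car12*, which serves pH control, measured 21.9, 26.1, 24.2 and 10.4 CPM in controls and 11.3, 7.75, 9.49, 7.67 and 12.7 CPM in mutants. Control 76 lay among the mutants, as it did for the summed markers of committed cells (332 CPM against 247 to 363 CPM in mutants), whose part was not tested. The log2 fold change of *Car12* was −1.08 (SE 0.25, edgeR adjusted p = 0.0148), and that of *Fam162a* was −0.61 (SE 0.16, edgeR adjusted p = 0.0216), with 168 exonic bases shared with *Wdr5b* on the opposite strand (14.5 and 11.3 CPM). The most abundant targets per kilobase that did not pass were *Bnip3l* (NIX), the relative of *Bnip3*, with a log2 fold change of −0.10 (95% interval −0.34 to 0.14), and *Wsb1*, with 0.14 (−0.13 to 0.41). Calls were lost for *Cxcr4* without control 71, 72 or 73 or mutant 78 (adjusted p = 0.0699, 0.0753, 0.0683 and 0.0529, edgeR), for *Nfil3* without control 72 or 73 or mutant 78 (0.0502, 0.0768 and 0.0525), for *Fam162a* without control 71 or mutant 77 (0.0638 and 0.0529) and for *Car12* without control 73 (0.0533).

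A further list held 19 glycolytic and lactate genes known as HIF targets, whose control by HIF in these cells was not tested. Of these, 6 fell with edgeR, beside 7.02% of all tested genes. DESeq2 called 7 lower, beside 1438 of the 14990 tested genes, and limma-voom 10, beside 2455. At an unadjusted p under 0.05, 11 were lower, beside 31.4% of all tested genes in either direction. By each of these counts 0 rose. Of the fitted values, 18 of 19 were below 0 (median −0.39 beside −0.01 for all tested genes). Mutant 74 stood apart from the other mutants, since its mean log2 CPM over the 19 genes lay at −0.12 relative to the control mean, level with control 76 (−0.12), and theirs at −0.66 to −0.44. The count was 10 without mutant 74, 4 without control 71 or 73 or mutant 75, 77 or 78, and 5 without control 72 or mutant 79. *Aldoc* (−1.45), *Slc16a3* (−0.94), *Pfkl* (−0.82), *Eno1* (−0.70), *Ldha* (−0.66) and *Pgk1* (−0.35) passed, whereas the abundant *Gapdh* (−0.16, adjusted p = 0.457) and *Aldoa* (−0.39, adjusted p = 0.0627) did not in edgeR. *Pfkl* missed the threshold without control 71, 72 or 73 or mutant 75, 77 or 78 (adjusted p up to 0.127), *Pgk1* without control 71, 73 or 76 or mutant 75, 77, 78 or 79 (up to 0.127), and *Aldoa* passed without mutant 74 (0.031), with DESeq2 (0.0368) and with the Y-linked covariate (0.0234). With 1 surrogate variable both *Gapdh* (−0.29, adjusted p = 0.0154) and *Aldoa* (−0.40, adjusted p = 0.0315) passed in edgeR. For the committed and renal vesicle markers, the same mean lay at −0.55 in mutant 74 and −0.57 in control 76. The other mutants lay from −1.29 to −0.81. The part of these markers in the glycolytic values was not tested.

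The other ligands and the receptors of the VEGF and adrenomedullin families were followed beside *Vegfa* and *Adm*. Of these 13 genes, 4 rose with edgeR (*Nrp1*, *Calcrl*, *Ramp3* and *Adm2*), beside 7.82% of all tested genes. DESeq2 called 4 higher, beside 1746 of the 14990 tested genes, and limma-voom 5, beside 2403. At an unadjusted p under 0.05, 5 were higher, beside 31.4% of all tested genes in either direction. By each of these counts 0 fell, and the median log2 fold change was 0.74 beside −0.01 for all tested genes. This median depended on genes with few reads, and it was 0.45 with limma-voom and 0.28 for the 8 of the 13 genes with at least 10 counts in every library. The VEGF coreceptor *Nrp1* measured 128, 147, 109.96 and 173 CPM in controls and 246, 201, 208, 205 and 215 CPM in mutants. All mutants lay above all controls (log2 fold change 0.63, SE 0.13, edgeR adjusted p = 0.00976). *Calcrl*, the receptor that binds adrenomedullin together with a RAMP protein, measured 23.3, 33.5, 27.4 and 42.0 CPM in controls and 33.3, 62.2, 53.2, 55.2 and 69.4 CPM in mutants. Mutant 74 lay among the controls and the other mutants above them (log2 fold change 0.79, SE 0.21, edgeR adjusted p = 0.0262). Its call was lost without control 71, 72 or 73 or mutant 75, 78 or 79 (adjusted p = 0.081, 0.0532, 0.0868, 0.0537, 0.0527 and 0.0586, edgeR).

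The RAMP gene *Ramp3* had 0.511, 1.28, 0.590 and 0.844 CPM in controls and 8.99, 8.99, 4.18, 2.61 and 4.67 CPM in mutants, from 12 to 33 reads and from 53 to 211 reads. All mutants lay above all controls, with mutants 74 and 75 the highest, which also had the highest summed stromal markers (608 and 919 CPM). Its log2 fold change was 2.85 (SE 0.44, edgeR adjusted p = 0.00185). *Adm2*, a second ligand of these receptors, had 3 to 9 reads in controls and 13 to 79 in mutants, without overlap, for a log2 fold change of 3.24 (SE 0.61, edgeR adjusted p = 0.00528). The abundant *Ramp2* (348 and 432 CPM) and *Pgf* (106 and 98.5 CPM) did not pass, with log2 fold changes of 0.31 (95% interval −0.05 to 0.67) and −0.10 (−0.43 to 0.23), the latter 0.01 without control 76. *Ramp2* overlaps *Vps25* over 1103 exonic bases on the same strand. The endothelial VEGF receptors *Kdr* (0.411 and 0.687 CPM) and *Flt1* (0.410 and 1.09 CPM) were near 0 in both groups. For the 10 stromal markers (6 higher) and the 10 endothelial markers (1 higher, 3 lower) given above, the part in these receptor results was not tested.

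**Figure D2:**
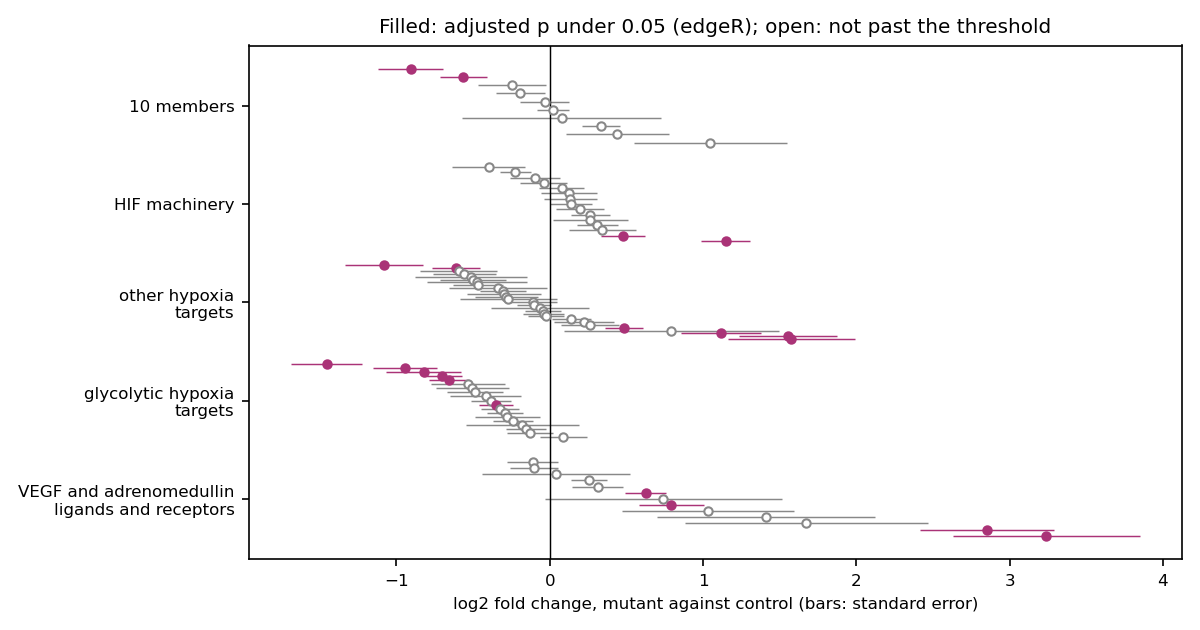
Log2 fold change of mutant against control cells (horizontal axis) for each tested gene of the 10 HIF pathway members and of 4 further lists, with its standard error as a bar. Filled points passed the threshold of edgeR (adjusted p under 0.05) and open points did not. The glycolytic genes lie mostly to the left of 0 (median −0.39), and the VEGF and adrenomedullin genes mostly to the right, several of them with long bars.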

How the data were processed

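The authors counted reads per gene, and the deposited table holds these counts for each of 9 libraries, made according to the labels from amplified cDNA with poly(A) selection and no strand information. The submitters' processing notes name STAR, DESeq2 and mm10; versions, the counter and the annotation are not given in the sources used here. The authors also deposited FPKM values, scaled by gene length and summed counts, and a normalized signal per genotype. The deposited log2 fold changes and p-values are the authors' own comparison of mutant with control and were not used. The counts went into edgeR 4.0.16 under R 4.3.3 (filterByExpr on genotype, TMM factors, robust quasi-likelihood test), and 95% intervals are those of the fitted log2 fold change; the standard error is that value divided by the square root of F. Depth was 21040536 to 23986458 counts per library, so counting error is small except for genes with few reads. For single values, 2-sided exact permutation tests used log2(CPM + 0.5) over 126 splits. Alternatives were DESeq2 1.42.0, RLE and upper-quartile factors, no filter beyond 1 count, a minimum of 10 counts in each library, limma-voom (limma 3.58.1) with sample weights, 1 surrogate variable (sva 3.50.0), a covariate for Y-linked expression (the labels give no sex), and each library left out. The fits were tested on simulated counts, drawn with the dispersions and library sizes that edgeR estimated from these data. In them DESeq2 made more false calls than its threshold allows. Since the simulation was built on the model of edgeR, it cannot rank the methods on the real counts. Figures were drawn with Python 3.11.15 and matplotlib 3.10.9. Genes were matched by symbol, and the table's *Tceb1*, *Tceb2*, *Ero1l*, *Figf* and *Emr1* stand for *Eloc*, *Elob*, *Ero1a*, *Vegfd* and *Adgre1*. Named genes are all 10 members, *Uqcrq*, *Arnt*, *Vhl*, *Hif1an* and *Egln2*, in each further list up to 8 called genes and the 2 most abundant others per kilobase, and the 2 genes most like each called member; *Kdr*, *Flt1* and single cell type markers were picked for naming with their values known. The members and lists were chosen with earlier results of these data known.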

Additional observations from a re-analysis of the deposited data

Results flagged for a closer look

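Of 106 groups of 4 or 5 libraries checked for a library far from the others, 3 stood out, and chance marks about 1 in 20. *Siah2* in mutant 74 was 18.6 CPM, below the nearest mutant at 25.3 CPM. *Hmox1* in mutant 78 was 36.8 CPM, above the nearest mutant at 18.6 CPM. The summed nephron progenitor markers in control 76 were 2608 CPM, above the nearest control at 2192 CPM.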

How the results depend on the processing

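No paired analysis was possible because the genotypes share no replicate numbers. The table had 2225 calls with edgeR, 4858 with limma-voom, and 1046 (without control 73) to 3136 (without mutant 74) with 1 library left out, including 1354, 1272 and 1336 without control 71, control 72 or mutant 78. For the HIF members, 0 (without control 71) to 3 (without mutant 74) were called with 1 library left out, 1 of them without control 76 or mutant 77, 78 or 79; 0 to 2 were lower, and 0 to 1 higher, with 1 higher in DESeq2 and in limma-voom. The machinery had 1 call without the filter, 4 with limma-voom, 4 with 1 surrogate variable and 1 to 2 with 1 library left out (1 without control 71 or 73 or mutant 75, 77, 78 or 79). The other hypoxia targets had 11 calls with limma-voom and 3 (without control 73) to 10 (without mutant 74), and the glycolytic list 10 with limma-voom, 10 with 1 surrogate variable and 4 to 10 (without mutant 74). The VEGF and adrenomedullin list had 3 to 5 calls over all alternatives.

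Over these alternatives, signs of named genes turned only where the gene had not passed. This leaves out *Kdr*, *Flt1*, the single cell type markers and the overlapping or similar neighbours, whose signs were not followed here. *Epas1* was −0.49 with limma-voom, −0.27 without control 76 and −0.37 without mutant 74 (−0.37 to 0.37 with 1 library left out). *Vegfa* was −0.0085 with upper-quartile factors, −0.012 without control 73 and −0.026 without mutant 79 (−0.026 to 0.076). *Higd1a* was 0.076 with limma-voom, 0.086 without control 71, 0.014 without control 76 and 0.050 without mutant 79 (−0.14 to 0.086). *Tceb2* was −0.061 with 1 surrogate variable, −0.0089 with the Y-linked covariate, −0.018 without control 72 and −0.016 without mutant 78 (−0.018 to 0.20). *Pgf* was 0.049 with limma-voom and 0.011 without control 76 (−0.21 to 0.011). The cause was not tested. Among called genes, *Cxcr4* (adjusted p = 0.117), *Hif1an* (0.0703), *Pfkl* (0.118) and *Pgk1* (0.104) also missed the threshold of edgeR without the filter, where 26858 genes were tested in place of 14990, *Pgk1* with RLE factors (0.0621), *Pfkl* with the Y-linked covariate (0.0844) and *Calcrl* with 1 surrogate variable (0.0578). With a minimum of 10 counts in each library, *Epas1* and *Adm2* were not fitted.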
